A study of Mus musculus with 13 samples.

Results

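The 10 genes described here mark macrophages and some of their states in the mouse heart: Cd68, Csf1r, Mrc1, Cd163, Lyve1, Mertk, Trem2, Gpnmb, Cd14 and Fcgr1. They were chosen by symbol from the gene entries of a deposited count table, and all 10 were found among 35793 genes with distinct symbols, of which 13434 had enough reads to be tested. All 10 passed that filter on low counts. The 13 libraries came from cardiac muscle of C57BL/6JO1aHsd mice, 8 to 10 weeks old when treatment began, sampled at a time labelled 1W+6W, which the labels do not spell out. The tissue was left ventricle from outside the ischaemic region, and no sample is labelled as scar. The sham group (n = 3) had sham surgery and no antibody. The IgG group (n = 5) had a permanent ligation of the left anterior descending coronary artery (LAD), which causes a myocardial infarction (MI), and a control antibody, labelled as mouse anti IgG, at 10 mg/kg. The FG-3149 group (n = 5) had the same ligation and FG-3149, a monoclonal antibody against connective tissue growth factor (CTGF), at 10 mg/kg. Because sham mice received no antibody, infarction and antibody injection cannot be told apart in either comparison with sham. The labels number replicates within groups and speak of animals only in the design text, so p-values measure the spread between these samples.

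Macrophages are phagocytes that live in the healthy heart as a self-renewing resident population and are joined after injury by cells that develop from blood monocytes. Their survival depends on the receptor encoded by Csf1r, and resident cells that lie along vessels are known for Lyve1, Mrc1 and Cd163. A state called lipid-associated, known from fat, artery wall and injured tissue that is rich in dead cells, is marked by Trem2 and Gpnmb, and clearance of dead cells (efferocytosis) uses the receptor encoded by Mertk.

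Depth ran from 12025845 to 14999773 estimated counts a library among sham hearts, from 13084651 to 17567207 in the IgG group and, below that range, from 10954901 to 12794791 in the FG-3149 group. Rn45s, the precursor of ribosomal RNA, held between 0.276% and 0.334% of a sham library, between 0.673% and 1.94% of an IgG library and between 0.199% and 2.86% of an FG-3149 library, highest in replicate 3. Levels below are in CPM, relative to library size after TMM scaling. Because this is bulk tissue, more macrophages and more RNA per macrophage cannot be told apart.

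The promoters of 4 of the genes are shown because the 10 genes differed in how far they changed, and because short motifs of macrophage transcription factors were searched in them. The sequences are from RefSeq (GRCm38.p6, the same coordinates as mm10), 5′ to 3′ on the strand of the gene, from 250 bases before the start to 20 bases after it. Capitals mark 2 motifs on either strand: TGANTCA, which AP-1 factors bind, and GAGGAA, the core that PU.1 binds. They stand in the order Trem2 (chr17:48346151-48346420, plus strand), Gpnmb (chr6:49036268-49036537, plus strand), Cd68 (chr11:69666151-69666420, minus strand) and Mrc1 (chr2:14229164-14229433, plus strand).
Trem2: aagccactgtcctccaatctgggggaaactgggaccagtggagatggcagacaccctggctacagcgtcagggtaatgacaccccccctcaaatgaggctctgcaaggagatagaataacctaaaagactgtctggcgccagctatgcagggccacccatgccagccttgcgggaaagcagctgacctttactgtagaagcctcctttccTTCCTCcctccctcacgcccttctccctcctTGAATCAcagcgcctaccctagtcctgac
Gpnmb: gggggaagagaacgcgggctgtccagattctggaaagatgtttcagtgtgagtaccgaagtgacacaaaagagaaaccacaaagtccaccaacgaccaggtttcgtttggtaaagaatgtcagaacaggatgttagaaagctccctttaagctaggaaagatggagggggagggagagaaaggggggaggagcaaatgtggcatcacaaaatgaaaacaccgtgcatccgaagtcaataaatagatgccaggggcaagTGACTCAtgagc
Cd68: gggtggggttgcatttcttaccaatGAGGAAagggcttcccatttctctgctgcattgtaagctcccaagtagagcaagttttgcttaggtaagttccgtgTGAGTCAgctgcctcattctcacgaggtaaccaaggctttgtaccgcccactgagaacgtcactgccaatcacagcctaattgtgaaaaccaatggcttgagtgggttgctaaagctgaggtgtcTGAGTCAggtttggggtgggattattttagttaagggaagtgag
Mrc1: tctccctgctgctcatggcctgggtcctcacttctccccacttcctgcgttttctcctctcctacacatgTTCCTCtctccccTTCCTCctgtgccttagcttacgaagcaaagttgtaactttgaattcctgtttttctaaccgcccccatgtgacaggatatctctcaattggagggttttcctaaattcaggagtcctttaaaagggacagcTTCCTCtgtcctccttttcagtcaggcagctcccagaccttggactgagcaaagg
The Trem2 promoter held 1 TGANTCA match, 9 bases before the start, and 1 GAGGAA match. Gpnmb had a TGANTCA match that began 8 bases after the start, and no GAGGAA match. Cd68 held 2 TGANTCA matches and 1 GAGGAA match, and Mrc1 held 3 GAGGAA matches and no TGANTCA match. Of the 7 members with an entry in the promoter table, 3 held TGANTCA, against 7.23% of 32851 promoters of the same length, and 4 held GAGGAA (Trem2, Cd68, Mrc1 and Fcgr1), against 25.1%. The E-box CACGTG, which the MITF and TFE family binds, was found in 0 of 7 (6.57% of all promoters), and the related CATGTG in Mrc1 alone (13.1%). Both strands were searched, no match overlapped one of another motif in these promoters, and a match describes the letters only. The RefSeq start of Cd68 lies upstream of the start in the count table.

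Infarction under control IgG was compared with sham to ask which macrophage genes differed outside the ischaemic region. Of the 10 genes, 7 were higher with IgG and 0 were lower by edgeR's quasi-likelihood test with Benjamini-Hochberg adjustment over 13434 genes. Over all genes tested, 17.8% were called higher and 15.9% lower. In 6 of the 10, every IgG library lay above every sham library, as did 18.2% of all genes tested. The median log2 fold change of the 10 was 0.76, beside 0.00 over all genes. With FG-3149, again 7 were higher than sham and 0 lower, where 15.6% of all genes were higher and 13.9% lower. Here 8 of the 10 had every FG-3149 library above every sham library, against 16.6% of all genes, and the median log2 fold change was 0.63. Both comparisons use the same 3 sham libraries. IgG replicate 1 had the lowest level of the IgG group in 9 of the 10 genes, and without it 9 of the 10 were called higher. Without FG-3149 replicate 3, 6 were called higher with FG-3149 than in sham. Leaving out a sham library left 5 calls with IgG, and 4, 3 and 4 with FG-3149 for sham replicates 1, 2 and 3. Calls over all genes, in both directions, also moved in these refits. With IgG they numbered 4528, then 4808 without IgG replicate 1, and 3329, 3406 and 3682 without sham replicate 1, 2 or 3. With FG-3149 they numbered 3959, then 3815 without FG-3149 replicate 3, and 2643, 2727 and 3105 without sham replicate 1, 2 or 3.

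**Figure D1:**
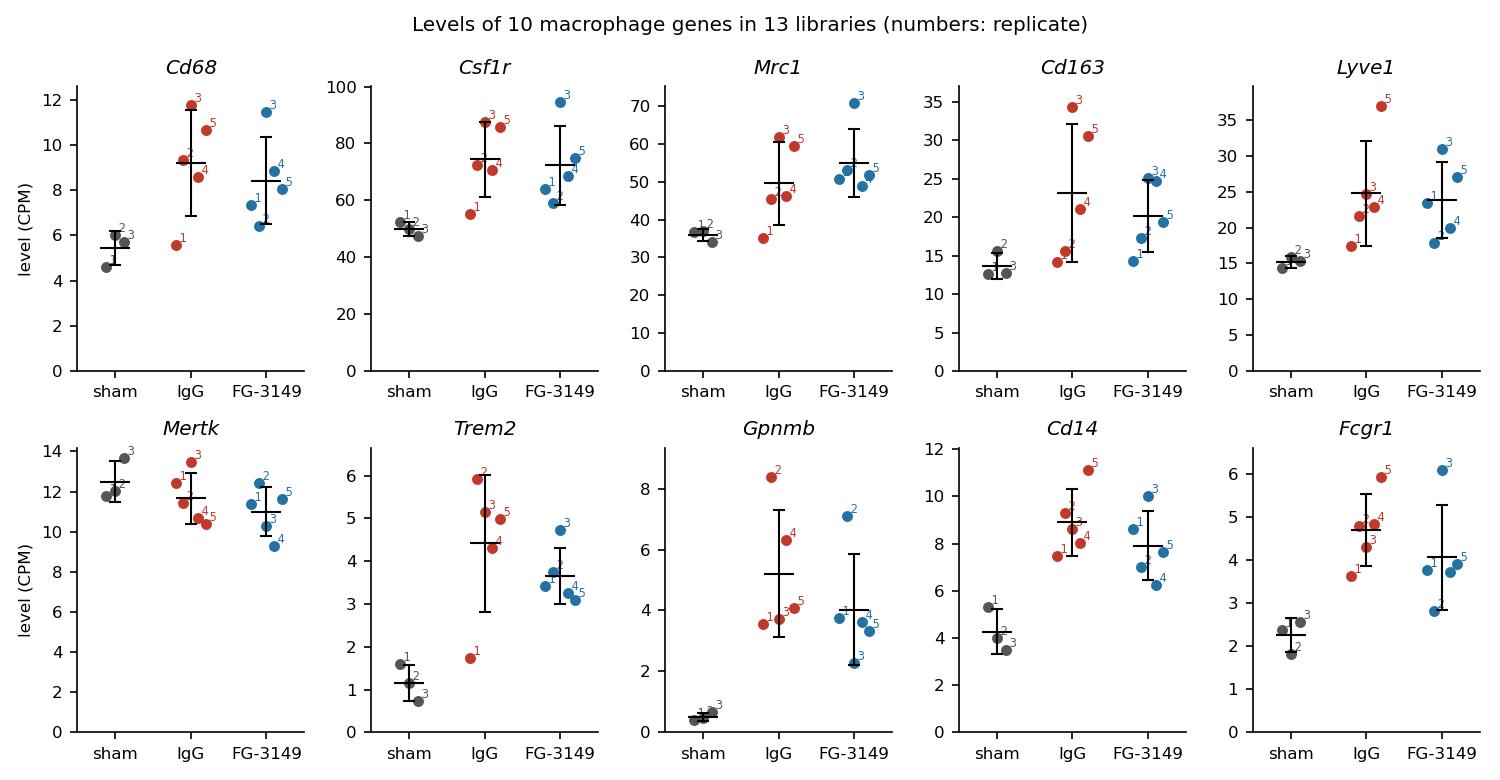
Level of each of the 10 genes (y axis, CPM from 0, a scale of its own in each panel) in sham (grey, n = 3), MI with IgG (red, n = 5) and MI with FG-3149 (blue, n = 5). Points are libraries numbered by replicate, and bars are the mean ± SD. Csf1r, Lyve1, Trem2, Gpnmb, Cd14 and Fcgr1 lie above sham in all 10 infarcted libraries, and Mertk overlaps in all groups.

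Gpnmb, a transmembrane glycoprotein of lysosome-rich macrophages, had the largest change of the 10 (Entrez gene 93695, mm10 chr6:49036518-49058182, plus strand). Its level was 0.397, 0.474 and 0.663 CPM in sham replicates 1 to 3, 3.56, 8.38, 3.73, 6.30 and 4.07 in IgG replicates 1 to 5 and 3.76, 7.10, 2.27, 3.63 and 3.33 in FG-3149 replicates 1 to 5. All 10 infarcted libraries lay above all 3 sham libraries, and replicate 2 was the highest in each infarcted group. Gpnmb was 10.2-fold higher with IgG (log2 fold change 3.35 ± 0.49 (SE), edgeR adjusted p = 0.000122) and 7.87-fold higher with FG-3149 (log2 fold change 2.98 ± 0.50 (SE), edgeR adjusted p = 0.000635). The sham libraries held 5 to 8 Gpnmb reads each and the infarcted libraries 25 to 149, which limits the precision of these folds. The calls held in all 17 alternative fits in both comparisons, with log2 fold changes between 3.11 and 3.56 (IgG) and between 2.66 and 3.19 (FG-3149) over the fits to counts.

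Trem2, a lipid-sensing receptor of the lipid-associated state, changed next most (Entrez gene 83433, mm10 chr17:48346401-48352276, plus strand). Its level was 1.59, 1.15 and 0.745 CPM in sham replicates 1 to 3, 1.74, 5.91, 5.16, 4.30 and 4.99 in IgG replicates 1 to 5 and 3.42, 3.74, 4.73, 3.25 and 3.09 in FG-3149 replicates 1 to 5. The sham libraries lay below all infarcted libraries, and IgG replicate 1 was the closest to them. Trem2 was 3.80-fold higher with IgG (log2 fold change 1.93 ± 0.34 (SE), edgeR adjusted p = 0.000383) and 3.11-fold higher with FG-3149 (log2 fold change 1.64 ± 0.35 (SE), edgeR adjusted p = 0.00245). Reads numbered 9 to 20 in sham and 24 to 105 in the infarcted libraries. Both calls held in all 17 alternatives.

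Cd14, a co-receptor that hands bacterial lipopolysaccharide to the TLR4 complex, was 2.08-fold higher with IgG (log2 fold change 1.06 ± 0.18 (SE), edgeR adjusted p = 0.000179) and 1.85-fold higher with FG-3149 (log2 fold change 0.89 ± 0.18 (SE), edgeR adjusted p = 0.00141). The gene lies at mm10 chr18:36725067-36726654, minus strand (Entrez gene 12475). Its level was 5.32, 3.99 and 3.48 CPM in sham replicates 1 to 3, 7.47, 9.29, 8.60, 8.01 and 11.1 in IgG replicates 1 to 5 and 8.63, 7.02, 10.0, 6.23 and 7.64 in FG-3149 replicates 1 to 5. The lowest infarcted library, FG-3149 replicate 4, lay above the highest sham library. Fcgr1 (Entrez gene 14129, mm10 chr3:96282909-96293969, minus strand), the high-affinity receptor for IgG, read 2.38, 1.83 and 2.57 CPM in sham replicates 1 to 3, 3.63, 4.78, 4.30, 4.83 and 5.91 in IgG replicates 1 to 5 and 3.76, 2.83, 6.09, 3.72 and 3.90 in FG-3149 replicates 1 to 5. None of the 10 infarcted libraries fell within the sham range. Fcgr1 was 2.08-fold higher with IgG (log2 fold change 1.06 ± 0.23 (SE), edgeR adjusted p = 0.00184) and 1.80-fold higher with FG-3149 (log2 fold change 0.84 ± 0.24 (SE), edgeR adjusted p = 0.0128). The second of these was lost without sham replicate 2 (log2 fold change 0.70, edgeR adjusted p = 0.0783), while the Cd14 calls and the Fcgr1 call with IgG held in all 17 alternatives.

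The general macrophage genes Csf1r and Cd68 were higher by smaller factors. Csf1r (Entrez gene 12978, mm10 chr18:61105572-61131139, plus strand), the receptor for the growth factors CSF1 and IL-34, read 52.5, 49.9 and 47.5 CPM in sham replicates 1 to 3, 55.2, 72.4, 87.6, 70.8 and 85.8 in IgG replicates 1 to 5 and 64.1, 59.2, 94.6, 68.5 and 75.0 in FG-3149 replicates 1 to 5. All infarcted libraries lay above sham, with IgG replicate 1 the closest. Csf1r was 1.49-fold higher with IgG (log2 fold change 0.57 ± 0.17 (SE), edgeR adjusted p = 0.0193) and 1.44-fold higher with FG-3149 (log2 fold change 0.53 ± 0.17 (SE), edgeR adjusted p = 0.0328). The IgG call was lost without sham replicate 2 or 3 (log2 fold changes 0.57 and 0.54). The FG-3149 call was lost without sham replicate 1, 2 or 3 or FG-3149 replicate 5 (log2 fold changes 0.57, 0.53, 0.50 and 0.52). Cd68 (Entrez gene 12514, mm10 chr11:69664371-69666062, minus strand), a glycoprotein of late endosomes and lysosomes, read 4.61, 6.03 and 5.71 CPM in sham replicates 1 to 3, 5.59, 9.34, 11.8, 8.60 and 10.7 in IgG replicates 1 to 5 and 7.35, 6.41, 11.5, 8.83 and 8.05 in FG-3149 replicates 1 to 5. IgG replicate 1 lay within the sham range, and the other 9 infarcted libraries lay above it. Cd68 was 1.69-fold higher with IgG (log2 fold change 0.75 ± 0.22 (SE), edgeR adjusted p = 0.0143), a call lost without sham replicate 1 (0.65, edgeR adjusted p = 0.077). With FG-3149 it was 1.53-fold higher (log2 fold change 0.62 ± 0.22 (SE), edgeR adjusted p = 0.0487). That call was lost in 9 of 17 alternatives, among them those without any 1 of the sham libraries or of FG-3149 replicates 1, 3, 4 and 5, where log2 fold changes ran from 0.48 to 0.70.

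The scavenger and endocytic receptors of resident macrophages stood higher in both infarcted groups by their means, with less certain calls. Mrc1 (Entrez gene 17533, mm10 chr2:14229414-14332023, plus strand), the mannose receptor CD206, read 36.8, 37.1 and 34.2 CPM in sham replicates 1 to 3, 35.1, 45.4, 61.8, 46.2 and 59.5 in IgG replicates 1 to 5 and 50.7, 53.1, 70.9, 48.9 and 51.7 in FG-3149 replicates 1 to 5. IgG replicate 1 lay within the sham range, and FG-3149 replicate 3 was far above the other 4 of its group. Mrc1 was 1.53-fold higher with FG-3149 (log2 fold change 0.61 ± 0.18 (SE), edgeR adjusted p = 0.0223), lost without sham replicate 1, 2 or 3 (log2 fold changes 0.62, 0.63 and 0.58). With IgG it missed the threshold (log2 fold change 0.46 ± 0.18 (SE), edgeR adjusted p = 0.0616) and passed it without IgG replicate 1 (0.56, edgeR adjusted p = 0.00759). The microRNA gene Mir511 lies within Mrc1, and reads of the pair cannot be told apart where they overlap.

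Lyve1 (Entrez gene 114332, mm10 chr7:110850607-110862953, minus strand), a hyaluronan receptor that lymphatic endothelium also carries, read 14.3, 15.9 and 15.3 CPM in sham replicates 1 to 3, 17.5, 21.6, 24.7, 22.9 and 37.0 in IgG replicates 1 to 5 and 23.4, 17.9, 31.0, 19.99 and 27.0 in FG-3149 replicates 1 to 5. Every infarcted library lay above sham, and IgG replicate 5 was the highest. It was 1.62-fold higher with IgG (log2 fold change 0.70 ± 0.23 (SE), edgeR adjusted p = 0.0383), and missed the threshold with FG-3149 (log2 fold change 0.65 ± 0.24 (SE), edgeR adjusted p = 0.0596). The IgG call was lost when any 1 of the sham libraries or of IgG replicates 3 and 4 was left out, with log2 fold changes of 0.66 to 0.73, and FG-3149 passed without FG-3149 replicate 2 (0.74, edgeR adjusted p = 0.0356). Lymphatic endothelial markers moved beside it: of 5 tested, Pdpn, Flt4 and Ccl21a were called higher in both comparisons, and Prox1, the transcription factor that defines lymphatic identity, was lower with IgG (log2 fold change -0.36, edgeR adjusted p = 0.0146). The Ccl21a call with IgG was lost without sham replicate 2 or 3 (log2 fold changes 1.27 and 1.30) and with FG-3149 without sham replicate 2 (1.36). The Flt4 call with IgG was lost without sham replicate 1 or 3 (0.31 and 0.24) and with FG-3149 without sham replicate 3 (0.30), and the Prox1 call without sham replicate 1 or 3 (-0.29 and -0.31). The summed level of the 6 lymphatic genes spanned 92.3 to 109.9 CPM among sham, 101.5 to 138.1 among IgG and 100.5 to 159.4 among FG-3149 libraries, and Mmrn1 was at 0 in all libraries. Prox1 made up a large part of this sum, with means of 56.0 CPM in sham, 43.6 with IgG and 50.1 with FG-3149. Which cells the Prox1 reads came from, and the part of lymphatic endothelium in the Lyve1 result, were not tested.

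Cd163 (Entrez gene 93671, mm10 chr6:124304651-124330527, plus strand), the receptor for haemoglobin bound to haptoglobin, read 12.6, 15.6 and 12.8 CPM in sham replicates 1 to 3, 14.2, 15.6, 34.4, 21.0 and 30.6 in IgG replicates 1 to 5 and 14.3, 17.3, 25.1, 24.7 and 19.3 in FG-3149 replicates 1 to 5. The infarcted libraries spread widely, from IgG replicate 1 and FG-3149 replicate 1 within the sham range to IgG replicate 3, the highest. It missed the threshold with IgG (log2 fold change 0.76 ± 0.32 (SE), edgeR adjusted p = 0.0885) and with FG-3149 (log2 fold change 0.56 ± 0.32 (SE), edgeR adjusted p = 0.222), and passed with IgG when IgG replicate 1 was left out (0.89, edgeR adjusted p = 0.0383), and with FG-3149 when only these 2 groups were fitted (0.56, edgeR adjusted p = 0.0379).

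Mertk (Entrez gene 17289, mm10 chr2:128698997-128802188, plus strand), the receptor tyrosine kinase that binds dying cells through bridging proteins, was the single gene of the 10 with both infarcted means below the sham mean. Its level was 11.8, 12.1 and 13.7 CPM in sham replicates 1 to 3, 12.4, 11.4, 13.5, 10.7 and 10.4 in IgG replicates 1 to 5 and 11.4, 12.4, 10.3, 9.30 and 11.6 in FG-3149 replicates 1 to 5. The 3 groups overlapped. It missed the threshold with IgG (log2 fold change -0.10 ± 0.11 (SE), edgeR adjusted p = 0.545, 95% interval -0.33 to 0.14) and with FG-3149 (log2 fold change -0.18 ± 0.11 (SE), edgeR adjusted p = 0.255, 95% interval -0.42 to 0.06). Both intervals lie below the log2 fold changes fitted for the 7 called genes in the same comparison.

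The infarcted groups were then compared with each other, to ask whether the CTGF antibody went with other macrophage levels than control IgG. No gene of the 10 passed edgeR's quasi-likelihood test, and 0 had an unadjusted p under 0.05. The counts by DESeq2 and limma voom were also 0. Over all genes tested 0.916% were higher with FG-3149 and 0.156% lower (123 and 21 genes, or 74 and 28 with scaling by library totals alone). The mean with FG-3149 was below the mean with IgG for 9 of the 10 genes and above it for Mrc1. The share of all genes with a lower mean was not computed. The median log2 fold change of the 10 was -0.15, beside -0.01 over all genes. All 10 overlapped between groups. Of all genes tested, 1.9% had every FG-3149 library above every IgG library, and the share with every library below was not counted. The log2 fold changes ran from -0.37 for Gpnmb (95% interval -0.997 to 0.25) to 0.15 for Mrc1 (-0.17 to 0.47). For Trem2 the value was -0.29 (-0.81 to 0.23), for Fcgr1 -0.21 (-0.60 to 0.17) and for Cd163 -0.20 (-0.78 to 0.37). The narrowest intervals were those of Mertk (-0.29 to 0.12) and Cd14 (-0.46 to 0.13). Csf1r (-0.04) and Lyve1 (-0.05) had values near 0. Csf1r stood above 0 without IgG replicate 3 or 5 or FG-3149 replicate 2 (0.02, 0.01 and 0.03), and Lyve1 without IgG replicate 5 or FG-3149 replicate 2 or 4 (0.13, 0.05 and 0.01).

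**Figure D2:**
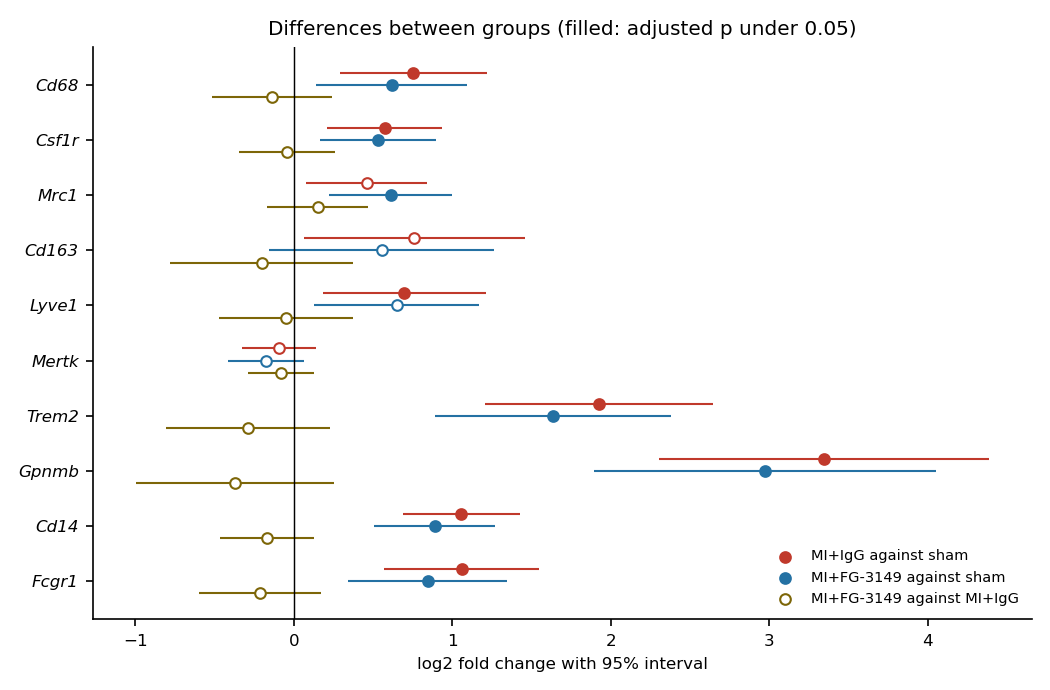
Log2 fold change (x axis) of the 10 genes (y axis) with 95% intervals for IgG against sham (red), FG-3149 against sham (blue) and FG-3149 against IgG (olive). Filled points passed edgeR's test at an adjusted p under 0.05. The comparisons with sham share the sham libraries. Gpnmb and Trem2 lie farthest to the right, and the intervals of FG-3149 against IgG all cross 0.

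Levels can be compared between genes on the deposited RPKM scale, which accounts for transcript length. In sham, Csf1r was highest at 12.9 ± 0.69 RPKM (SD, n = 3), and Gpnmb lowest at 0.135 ± 0.036. Between them the order of sham means was Mrc1, Lyve1, Cd68, Mertk, Cd163, Cd14, Trem2 and Fcgr1, and the neighbours Lyve1 and Cd68, Mertk and Cd163, Cd163 and Cd14, and Trem2 and Fcgr1 overlapped between libraries. Csf1r stayed highest with IgG at 19.4 ± 3.23 RPKM and with FG-3149 at 18.4 ± 3.17 (SD, n = 5), without overlap with the next gene. Mertk stood in the 5th place in sham and in the 8th in both infarcted groups, behind Cd14, Cd163 and Trem2. However, its libraries overlapped those of Cd163 and Trem2 in both infarcted groups, and those of Cd163 and Cd14 in sham. Trem2 rose from 1.02 ± 0.38 RPKM in sham to 4.01 ± 1.45 with IgG and 3.28 ± 0.59 with FG-3149, and Gpnmb, at 1.39 ± 0.57 and 1.06 ± 0.50, stayed in the last place and overlapped Fcgr1.

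The ratio of each gene to Csf1r within a library shows whether the genes changed unequally. Gpnmb was higher relative to Csf1r by 2.41 on the log2 scale with IgG and by 2.07 with FG-3149, and Trem2 by 1.20 and 1.06. In both genes every infarcted library lay above every sham library. For Trem2 the margin was narrow, with a log2 ratio of -4.87 in IgG replicate 1 beside -4.92 in sham replicate 1. The share of all genes so separated was not computed for ratios. Cd14 (0.49 and 0.36) and Fcgr1 (0.45 and 0.26) overlapped with sham. The ratios of Cd68 (0.15 and 0.08), Cd163 (0.12 and 0.02), Lyve1 (0.10 and 0.11) and Mrc1 (-0.12 and 0.08) stayed closest to their sham means, with overlap. The log2 ratio of Mertk to Csf1r differed from sham by -0.66 with IgG, with overlap, and by -0.70 with FG-3149, where all libraries lay below sham. With Cd68 as the reference, Gpnmb again lay above sham in every infarcted library (2.26 and 1.99), while Trem2 (1.05 and 0.98) overlapped with sham in the IgG group.

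**Figure D3:**
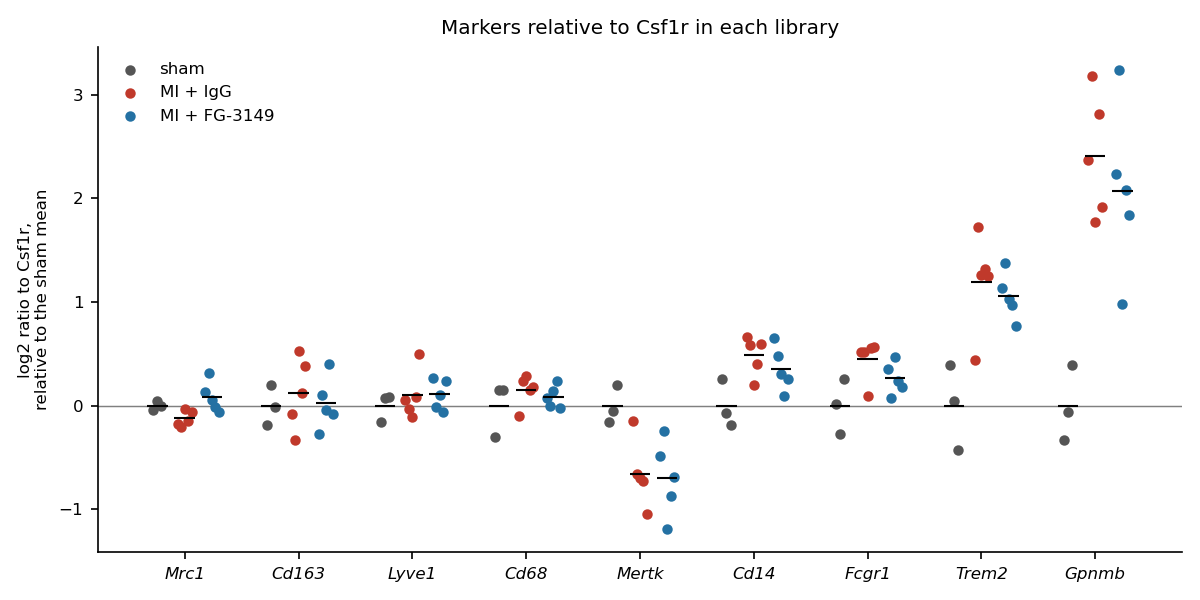
Log2 ratio of 9 genes to Csf1r in each library (y axis), relative to the sham mean of the same gene, for sham (grey), MI with IgG (red) and MI with FG-3149 (blue). Points are libraries and lines are group means. Trem2 and Gpnmb stand above sham in all infarcted libraries, for Trem2 by a narrow margin in IgG replicate 1. Mertk stands below 0 in all infarcted libraries, and Mrc1, Cd163, Lyve1 and Cd68 stay near 0.

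Within groups, the 4 highest correlations between libraries were among Csf1r, Mrc1, Cd68 and Lyve1. Correlations were computed for 45 pairs over 13 libraries after removal of group means, with within-group permutation tests (2-sided, 100000 resamples) adjusted over the 45 pairs. Mrc1 and Csf1r had Pearson r = 0.906 (permutation p = 0.00366, adjusted 0.0422) and Spearman rho = 0.758 (permutation p = 0.00975, adjusted 0.0996), and r was 0.831 without the 2 libraries farthest from the median. For Cd68 and Csf1r r was 0.890 (permutation p = 0.00132, adjusted 0.0422; rho = 0.753, permutation p = 0.0111, adjusted 0.0996) and 0.771 without 2 libraries. Cd68 with Cd163 (r = 0.803, permutation p = 0.00324, adjusted 0.0422; rho = 0.852, permutation p = 0.00206, adjusted 0.0927) and Lyve1 with Fcgr1 (r = 0.770, permutation p = 0.00375, adjusted 0.0422; rho = 0.566, permutation p = 0.063, adjusted 0.177) completed the 4 pairs that passed by Pearson's r, with 0.756 and 0.707 after 2 libraries were left out. No pair passed by Spearman's rho. The number passing by r was 0 without any 1 of IgG replicates 1, 3, 4 and 5 and FG-3149 replicates 1, 2, 3 and 5, 2 without IgG replicate 2, and 8 to 10 without a sham library. The r of Mrc1 with Csf1r itself stayed between 0.846 and 0.965 in these refits, and that of Cd68 with Csf1r between 0.818 and 0.960. For Gpnmb the r with the other 9 genes ran from -0.476 (Csf1r) to 0.191 (Mertk), with Trem2 at 0.114, and none passed. The r of Trem2 with Mrc1 was 0.735 (adjusted permutation p = 0.0539) and with Csf1r 0.692 (adjusted permutation p = 0.0603). Mertk had a negative r with 8 of the other 9 genes, and none passed. The points of each pair share their library and its depth.

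**Figure D4:**
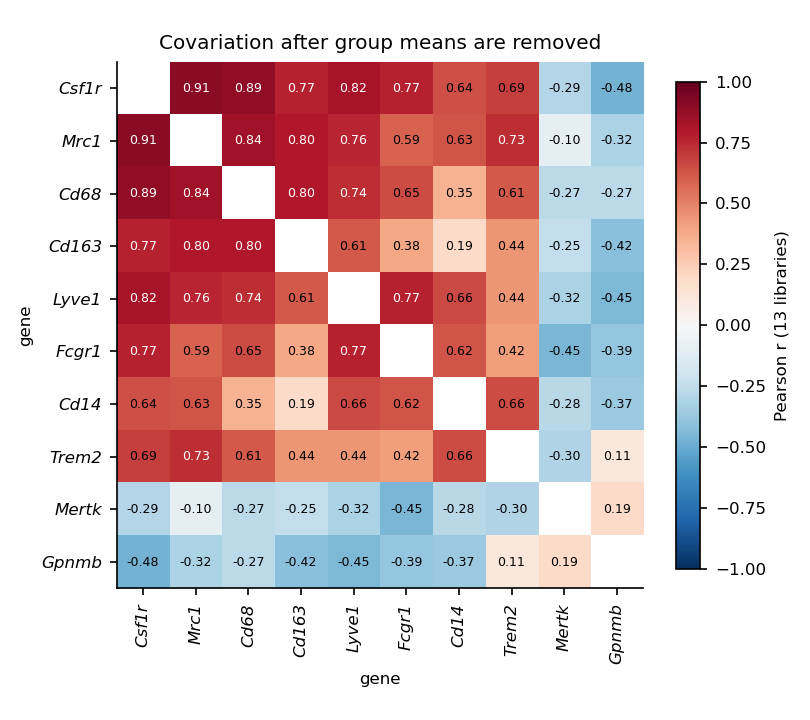
Pearson r between the 10 genes (both axes) over 13 libraries, from log2 CPM after group means were removed (red above 0, blue below 0). Among Csf1r, Mrc1, Cd68, Cd163 and Lyve1, r runs from 0.61 to 0.91. Pairs with other genes also fall in that range, among them Fcgr1 with Lyve1 (0.77) and Csf1r (0.77) and Trem2 with Mrc1 (0.735). The columns of Mertk and Gpnmb are mostly below 0.

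Among 11892 genes compared by the same r over the 13 libraries, those most like Cd68 were Tcn2 (r = 0.935), Gpx4 (0.933) and Qpct (0.929). Mrc1 was most like Itgam, an integrin chain of myeloid cells (0.964), F13a1, the A chain of coagulation factor XIII (0.929), and Ccl6, a chemokine (0.927). The genes most like Trem2 were Apod, a lipid carrier (0.933), Cyth4 (0.890) and Marcksl1 (0.874). For Gpnmb they were Bmp1, a procollagen proteinase (0.892), Slc7a2, a transporter of cationic amino acids (0.873), and 4930519F09Rik (0.870). These are the highest of many correlations and were not tested. The best r of Gpnmb with another of the 10 genes was 0.191, a maximum over far fewer genes. The 99th percentile of its r over the 11892 genes was 0.749.

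Reads of the 10 genes were also deposited by exon, and exon counts summed to the gene count in each library. Among exons with at least 20 reads over the sham libraries, 24 of 25 exons of Mrc1 had a higher mean with IgG than in sham and 25 of 25 with FG-3149. All 20 such exons of Csf1r were higher in both groups, with IgG to sham ratios of 1.25 to 2.34 and a median of 1.47. In Cd163 it was 11 of 11 with IgG and 9 of 11 with FG-3149, and in Cd68 and Lyve1 4 of 4 in both. For Mertk 2 of 6 were higher in each comparison. The exons of Trem2 and Gpnmb held too few sham reads for such a ratio.

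Other genes of macrophages were described by lists. Of 19 other pan-macrophage genes 16 were called higher with IgG and 15 with FG-3149, and 0 lower, with median log2 fold changes of 0.78 and 0.72. Among them were Ctss, a lysosomal protease (log2 fold change 0.99 with IgG and 0.85 with FG-3149, edgeR adjusted p = 8.45e-06 and 7.54e-05), Mpeg1, a pore-forming protein (1.04 and 0.96, edgeR adjusted p = 3.6e-05 and 0.000135), and Spi1, which encodes PU.1 (1.04 and 1.17, edgeR adjusted p = 0.000661 and 0.000384). Of 13 other resident genes tested 0 were called lower in either comparison, and the median log2 fold changes were 0.33 and 0.48. Those called higher included Gas6, Stab1 and Pf4 in both comparisons and Maf with FG-3149. The Stab1 calls were lost without sham replicate 2 (log2 fold change 0.28 with IgG and 0.27 with FG-3149), the second also without sham replicate 1 (0.35). The Pf4 calls were lost without any 1 of the sham libraries, IgG replicate 3, or FG-3149 replicate 3 or 5, with log2 fold changes of 0.35 to 0.50, and the Maf call without sham replicate 2 or 3 (0.46 and 0.51). With FG-3149 against IgG no gene of either list was called (edgeR's quasi-likelihood test).

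Of 21 other lipid-associated genes 11 were higher and 2 lower with IgG, and 8 higher and 1 lower with FG-3149, with medians of 0.28 and 0.16. Spp1, the secreted phosphoprotein osteopontin, had a log2 fold change of 3.70 with IgG (edgeR adjusted p = 7.47e-05) and 2.81 with FG-3149 (edgeR adjusted p = 0.00184), from 2 to 6 reads in sham. The apolipoprotein gene Apoe rose by 0.86 and 1.01 (edgeR adjusted p = 0.0012 and 0.000611), and the tetraspanin gene Cd9 by 1.12 and 0.82 (edgeR adjusted p = 1.59e-07 and 8.19e-06). The genes that were lower handle fatty acid uptake and are abundant in heart muscle: Cd36, at 2685 ± 95.8 CPM in sham (SD, n = 3) and 1903 ± 237 with IgG (SD, n = 5), fell by 0.50 on the log2 scale with IgG and by 0.49 with FG-3149 (edgeR adjusted p = 6.26e-05 and 0.000114). Lpl, named after its values were seen, fell by 0.25 with IgG (edgeR adjusted p = 0.0224), a call lost without sham replicate 1 or 2 (-0.24 and -0.20). With FG-3149 against IgG 0 of 21 were called by edgeR, and the nearest was Cd9 (-0.30, edgeR adjusted p = 0.0563), which passed by DESeq2 (adjusted p = 0.0227), by edgeR with library totals only (adjusted p = 0.0453) or with no filter on low counts (adjusted p = 0.0384), and by edgeR without IgG replicate 1 or 4 (-0.33 and -0.33).

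**Figure D5:**
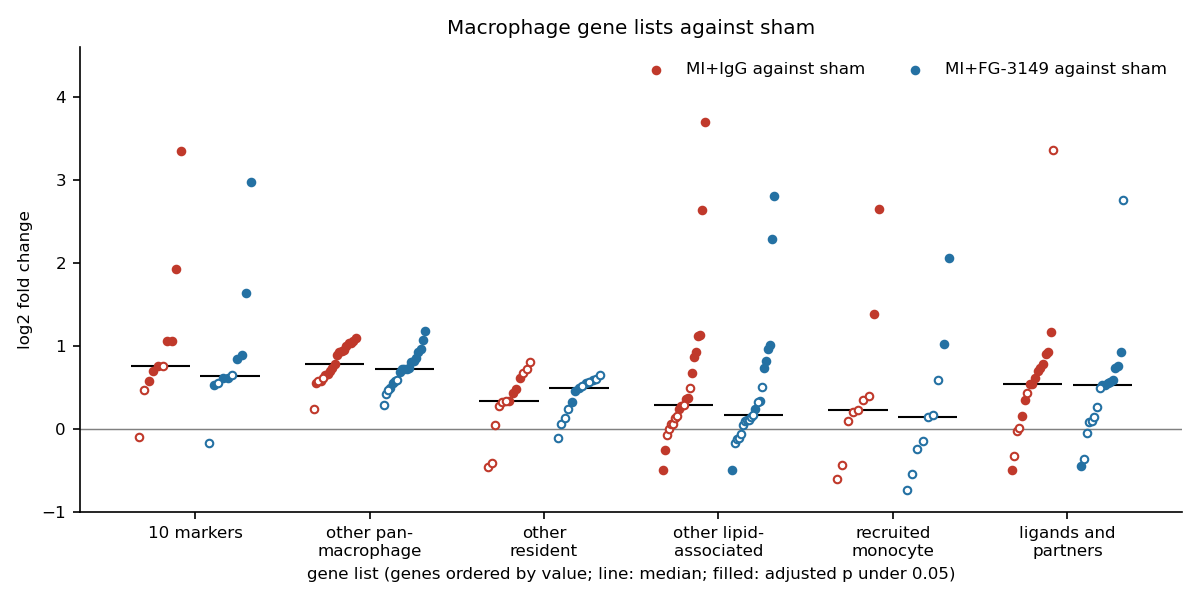
Log2 fold change against sham (y axis) of the genes of 6 lists (x axis) with IgG (red) and FG-3149 (blue). Points are genes, filled where edgeR's adjusted p was under 0.05, and lines are list medians. All points of the pan-macrophage list lie above 0, while each of the remaining lists has points on both sides of 0.

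Of 9 genes of recruited monocytes tested, 2 were called higher in each comparison and 0 lower, with medians of 0.22 and 0.14. The called genes were Fn1, fibronectin (log2 fold change 1.38 with IgG and 1.02 with FG-3149, edgeR adjusted p = 0.00111 and 0.00782), and Thbs1, thrombospondin (2.65 and 2.05, edgeR adjusted p = 0.00522 and 0.0223), which other cells of the heart also make. The Thbs1 call with FG-3149 was lost without sham replicate 1, 2 or 3 (log2 fold changes 2.08, 1.998 and 2.08). Ccr2, the chemokine receptor of recruited cells, missed the threshold (log2 fold change 0.35 ± 0.36 with IgG and 0.16 ± 0.37 with FG-3149, SE), and Arg1 had 0 to 2 reads per library.

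For the ligands and partners of these receptors, 11 of 17 tested were higher and 1 lower with IgG, and 8 higher and 1 lower with FG-3149. Both ligands of the Csf1r product were higher: Il34 by 0.90 and 0.75 on the log2 scale (edgeR adjusted p = 0.000947 and 0.00566), and Csf1 by 0.54 and 0.53 (edgeR adjusted p = 0.0247 and 0.0324). Both Csf1 calls were lost without sham replicate 1 or 2 (0.49 and 0.48 with IgG, 0.48 and 0.47 with FG-3149), the first also without IgG replicate 3 (0.50) and the second without FG-3149 replicate 4 or 5 (0.49 and 0.46). Beside Mertk, its bridging ligand Gas6 was higher by 0.61 and 0.59 (edgeR adjusted p = 1.43e-05 and 4.18e-05), and the related receptor Axl by 0.77 and 0.52 (edgeR adjusted p = 1.13e-05 and 0.000539). The other bridging ligand, Pros1, was higher with IgG (0.35, edgeR adjusted p = 0.0007) and missed the threshold with FG-3149 (0.14, edgeR adjusted p = 0.137), and the third receptor of that family, Tyro3, missed it in both (0.43 and 0.49) but passed with FG-3149 when its replicate 2 was left out (0.56).

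Tyrobp, the signalling adaptor of the Trem2 product, was higher by 0.92 and 0.73 (edgeR adjusted p = 0.0007 and 0.00558). Its level of 10.2 ± 0.814 CPM in sham (SD, n = 3) stood beside 19.2 ± 3.74 with IgG and 16.9 ± 3.23 with FG-3149 (SD, n = 5), a smaller relative change than that of Trem2 in these fits. Tlr4, partner of the Cd14 product, was higher with IgG (0.54, edgeR adjusted p = 0.000371) and missed the threshold with FG-3149 (0.26, edgeR adjusted p = 0.0583), which it passed without FG-3149 replicate 3 or 4 (0.29 and 0.29). Tlr2 was higher in both (0.70 and 0.56, edgeR adjusted p = 0.000827 and 0.00638). Hmox1, the haem oxygenase that acts downstream of Cd163, was higher by 1.16 and 0.93 (edgeR adjusted p = 1.42e-05 and 0.000252). Mitf, a transcription factor known to drive Gpnmb in macrophages and pigment cells and also expressed in heart muscle, fell by 0.49 and 0.45 (edgeR adjusted p = 5.89e-05 and 0.000262). Fcer1g, the signalling chain that the Fcgr1 product uses, was higher in both (0.73 and 0.55, edgeR adjusted p = 0.00453 and 0.0305). Its call with FG-3149 was lost without sham replicate 1 or 3 or FG-3149 replicate 1 or 3 (0.41, 0.59, 0.51 and 0.40) and with only these 2 groups fitted (0.55). Ly96, which encodes the TLR4 partner MD-2, missed the threshold in both (-0.33 and -0.37, edgeR adjusted p = 0.239 and 0.207). Hp, haptoglobin, which carries haemoglobin to the Cd163 product, had 3 to 6 reads in sham, and its CPM ran from 0.203 to 0.477 in sham, from 0.459 to 14.6 with IgG (median 1.23) and from 0.325 to 9.55 with FG-3149 (median 0.916). It missed the threshold in both (3.36 and 2.75, edgeR adjusted p = 0.175 and 0.3) and passed with IgG by DESeq2 (adjusted p = 0.0226). Adam10, a membrane protease, was called higher with IgG (0.15, edgeR adjusted p = 0.0492), a call lost without sham replicate 2 or 3 or any 1 of IgG replicates 1 to 4 (0.11 to 0.15), and missed the threshold with FG-3149 (0.10). The related protease Adam17 (-0.03 and -0.05) and Tfeb, a lysosomal regulator related to Mitf (0.0037 and 0.09), missed it in both, and Hcst had too few reads to be tested. With FG-3149 against IgG 0 of 17 were called by edgeR.

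Markers of other cells moved in the same comparisons. Of 10 fibroblast markers 9 were higher in each comparison with sham, and their summed level spanned 2617 to 2786 CPM among sham, 4140.0 to 5986 among IgG and 3873 to 4509 among FG-3149 libraries. The fibroblast gene Lum was the only marker of the 15 lists called between the antibodies (log2 fold change -0.41, edgeR adjusted p = 0.00393). The cardiomyocyte sum, with all 10 markers detected, spanned 90820 to 100500 CPM among sham, 81460 to 89220 among IgG and 85110 to 93280 among FG-3149 libraries. Of 10 cardiomyocyte markers 4 were called lower in each comparison: Myl2 (log2 fold changes -0.40 and -0.34, edgeR adjusted p = 5.71e-05 and 0.000332), Tnni3 (-0.39 and -0.28, edgeR adjusted p = 6.84e-05 and 0.00207), Myh6 (-0.42 and -0.28, edgeR adjusted p = 0.000185 and 0.00544) and Ryr2 (-0.37 and -0.31, edgeR adjusted p = 0.00043 and 0.00233). The Myh6 call with FG-3149 was lost without sham replicate 2 (-0.23). Actn2, named after its values were seen, was called higher with FG-3149 (0.19, edgeR adjusted p = 0.0484), a call lost without sham replicate 1 or 3 or FG-3149 replicate 3, 4 or 5 (0.13 to 0.20). Of 10 blood endothelial markers, Kdr (log2 fold changes -0.59 and -0.55, edgeR adjusted p = 0.000394 and 0.00106) and Emcn (-0.33 and -0.46, edgeR adjusted p = 0.00594 and 0.00071) were called lower in both comparisons, Tek (-0.22, edgeR adjusted p = 0.0235) and Tie1 (-0.20, edgeR adjusted p = 0.0357, named after its values were seen) lower with FG-3149, and Vwf higher in both (0.57 and 0.85, edgeR adjusted p = 0.0403 and 0.00703). The Emcn call with IgG was lost without sham replicate 2 (-0.23), the Vwf call with IgG without any 1 of the sham libraries or of IgG replicates 2 to 5 (0.50 to 0.62), the Tek call without sham replicate 1 or 3 (-0.23 and -0.18), and the Tie1 call without sham replicate 2 or 3 or FG-3149 replicate 1, 2 or 5 (-0.20 to -0.15). Blood endothelial sums were 1631 to 1800 CPM among sham, 1389 to 1705 among IgG and 1451 to 1584 among FG-3149 libraries. Of 4 neutrophil markers tested 0 were called, Ly6g was at 0 in all libraries, and Camp had at most 1 read in any library. B cell sums were 9.36 to 10.3 CPM among sham, 4.76 to 8.89 among IgG and 5.11 to 8.13 among FG-3149 libraries, with 0 of 4 called. Sums of T and NK cell markers were 4.94 to 6.12 CPM among sham, 5.10 to 7.60 among IgG and 6.03 to 8.37 among FG-3149 libraries. Of 3 T and NK cell markers tested, Lck was called higher with IgG (log2 fold change 1.61, edgeR adjusted p = 0.0336, from 2 to 6 reads in sham), a call lost when any 1 of IgG replicates 1 and 2 and sham replicates 2 and 3 was left out (1.34 to 1.52). It missed the threshold with FG-3149 (1.34, edgeR adjusted p = 0.0967) but passed without FG-3149 replicate 2 (1.60). Dendritic cell sums were 21.4 to 25.3, 18.2 to 21.1 and 17.8 to 24.2 CPM in the same order. Of 4 dendritic cell markers tested, Zbtb46, a transcription factor of these cells and of endothelium, was called lower in both comparisons (log2 fold changes -0.50 and -0.31, edgeR adjusted p = 0.00266 and 0.0489), the second lost without sham replicate 2 or 3 or any 1 of FG-3149 replicates 2 to 5 (-0.34 to -0.20). Of 4 red blood cell markers tested 0 were called. The part of fibroblasts and other cells in the levels of the 10 genes was not tested.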

How the data were processed

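RNA was extracted from 13 samples, and per the labels' protocols a stranded mRNA preparation from 500 ng of RNA was sequenced on a single flow cell with reads of 75 bases. Per the labels and the file headers the authors deposited estimated counts per gene, transcript and exon (expected counts, not normalized) and a table of RPKM per transcript, on build mm10, per the submitters' processing notes. The counting tool and strand setting are not given in the sources used here. Of 36172 gene entries 379 repeated symbols were left out, and 79.4% of gene values above 0 were within 0.01 of a whole number. Counts were rounded. In R 4.3.3, genes kept by filterByExpr (13434) were fitted with edgeR 4.0.16 (TMM, robust quasi-likelihood, all 13 libraries, no covariate), and calls are Benjamini-Hochberg adjusted p under 0.05. The SE is the log2 fold change over the root of the F statistic. Log2 CPM used a prior count of 2. The RPKM used is the sum over transcripts of a gene.

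Alternatives were DESeq2 1.42.0, limma 3.58.1 (voom, and log2(RPKM + 1) or log2(RPKM + 0.1)), other scaling, no filter, fits of 2 groups, a replicate block and each library left out. Scripts were tested on simulated data. The 10 genes and the lists were chosen with earlier results of these data known, and no list was tested. Named beside the 10 were up to 4 genes of each list with the smallest p in a comparison, all ligands and partners, and the 3 genes most like Cd68, Mrc1, Trem2 and Gpnmb. Fcer1g and Gas6 stand in 2 lists each, and Tyrobp in 3. The result of 1 gene of the resident list is not reported here. Lists used current symbols or older ones matched by Entrez number. Promoters are from the RefSeq table, which lists 7 of the 10 genes.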

Additional observations from a re-analysis of the deposited data

Results flagged for a closer look

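Mrc1 in FG-3149 replicate 3, at 70.9 CPM, stood apart from the other 4 libraries of its group, which lay between 48.9 and 53.1 CPM. The gap to the nearest library was 0.811 of the range of the group, above Dixon's critical value of 0.71 for 5 samples. This was the only such library among 20 sets of 5 (10 genes in 2 groups), and chance gives about 1 in 20. The same library was the highest of its group for 8 of the 10 genes and had the highest Rn45s share, 2.86%.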

How the results depend on the processing

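Over all genes, calls against sham numbered 4528 with IgG and 3959 with FG-3149. They ran from 3329 to 4808 and from 2643 to 3815 when 1 library was left out. The number of the 10 genes called against sham was 7 in both comparisons. It was 6 to 9 (IgG) and 5 to 9 (FG-3149) over the other tools, scalings and filters, and 5 to 9 and 3 to 8 when 1 library was left out. DESeq2 called 9 and 8 (Mrc1 and Cd163 with IgG and Lyve1 with FG-3149 added), limma voom 6 and 6 (Lyve1 with IgG and Cd68 with FG-3149 lost), edgeR without a filter 6 and 5 (Lyve1 with IgG, and Cd68 and Csf1r with FG-3149 lost), and edgeR on 2 groups 7 and 9 (Cd163 and Lyve1 with FG-3149 added). Between the antibodies it was 0 in every alternative, while all genes called numbered 144, 281 by DESeq2, 83 with only the 2 groups fitted, and 68 to 271 when 1 library was left out (271 without IgG replicate 1). Pairs of the 10 genes called by Pearson's r numbered 4, 9 over the infarcted libraries alone, and 0 to 10 when 1 library was left out. All log2 fold changes of the 10 genes kept their sign against sham in these alternatives. Against IgG, Csf1r ran from -0.16 to 0.026 and Lyve1 from -0.16 to 0.13 when 1 library was left out, so their sign turned. Ccr2 with FG-3149 against sham was -0.029 with the replicate block and -0.020 to 0.31 when 1 library was left out. Against sham with IgG, Tfeb was -6.17e-05 by RLE scaling, -8.11e-05 by DESeq2, -0.00473 by limma voom, -0.0852 with the replicate block and -0.0594 to 0.0498 when 1 library was left out, and Adam17 was 0.0131 with the block and -0.0566 to 0.00608 when 1 library was left out. With FG-3149 Tfeb was -0.00233 with the block. The cause was not tested.

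Of 11 pairs of libraries with the same replicate number, 2 had correlated deviations from group means above 0.1 (-0.0424 to 0.178). Both joined IgG with FG-3149, in replicates 1 (0.178) and 2 (0.133). No pairs with unlike numbers were computed, so these values cannot show whether replicate numbers pair the libraries. With the replicate block the calls were 4141, 3575 and 215 genes, and 7, 8 and 0 of the 10. Low reads limit Gpnmb and Trem2 in sham.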

Other observations

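Among 5 other genes of the lists, Gpnmb had its highest correlation with Lgals3 and Trem2 with Tyrobp. In 15 pairs chosen after their values were seen, with group means removed over 13 libraries, Gpnmb and Lgals3, which encodes the lectin galectin-3, had r = 0.800 (permutation p = 0.00064, adjusted 0.0096; rho = 0.753, permutation p = 0.00692, adjusted 0.0519), and r was 0.629 without the 2 libraries farthest from the median. For Gpnmb and Spp1 r was 0.671 (permutation p = 0.0256, adjusted 0.0641; rho = 0.615, permutation p = 0.0378, adjusted 0.142) and 0.326 without 2 libraries. Gpnmb with Apoe had r = -0.0362 and with Tyrobp -0.0403. Trem2 had r = 0.826 with Tyrobp (permutation p = 0.00296, adjusted 0.0222; rho = 0.758, permutation p = 0.00566, adjusted 0.0519; 0.844 without 2 libraries) and 0.107 with Lgals3.

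The deposited count data list 2 RefSeq transcripts of Trem2, and their entries were read as shares of the gene. The share of the first listed was between 1.33% and 12.1% in sham libraries. It was between 22.04% and 97.99% in the IgG group and between 48.6% and 97.99% in the FG-3149 group. However, the sham libraries held 9 to 20 Trem2 reads each, and 4 libraries shared that highest value. For Cd163 the split likewise took the value of 94.45% in 4 libraries.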
